A study of Rattus norvegicus with 72 samples.

Results

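Cultured rat hepatocytes exposed to Wy-14643, a synthetic agonist of the nuclear receptor PPARα, were compared with their control cultures at the labelled exposure time of 72 h. The comparison was defined by the array titles, which put 3 arrays in the Wy-14643 group and 3 in the control group, 6 of the 72 arrays of the series. Each Wy-14643 array was paired with the control array of the same D number, 1, 2 or 3, in its title, and replicate 1, 2 and 3 below are these numbers. All 31042 probe sets that are not array controls entered the comparison, and 18048 of them were bright enough to be tested. The cells of both groups were primary hepatocytes, isolated by collagenase perfusion and kept as a monolayer in William's E medium, serum-free from 4 h after plating and containing hydrocortisone and insulin. Wy-14643 was added at 250 µM from 18 to 20 h after plating. The control group is shared with clonidine and aflatoxin B1. The labels name neither the rat strain nor the vehicle, and they speak of 3 independent experiments per compound without saying what a D number marks. The whole series held 8 compounds and 4 control groups at 24 h and 72 h.

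PPARα is a lipid sensor. Bound by fatty acids or by drugs such as Wy-14643, it pairs with the retinoid receptor RXR on direct repeats of an AGGTCA-like hexamer. In rodent liver it is known for switching on the transport of fatty acids, their activation to CoA esters, their oxidation in mitochondria and peroxisomes, and their hydroxylation by Cyp4a enzymes, and its agonists enlarge rodent liver and multiply its peroxisomes.

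Some arrays stood apart. The replicate 3 arrays had log2 ratios of 3′ over 5′ beta-actin signal, which rise as RNA degrades, of 2.12 for Wy-14643 and 2.01 for the control, where the other 4 arrays lay between 0.423 and 1.04. A score of culture time, 0 for the 24 h mean and 1 for the 72 h mean of the controls of the other compound sets, was 0.728 and 0.289 on Wy-14643 replicates 1 and 2 and −0.035 on replicate 3, against 0.841, 0.323 and −0.123 on the control arrays. It was higher at 72 h than at 24 h in all 23 same-numbered pairs of the other D numbers that had not set the score, and lower in all 4 pairs of D number 3, so the replicate 3 arrays are labelled 72 h here only as their titles say. Wy-14643 replicate 2 had the lowest median intensity of all 72 arrays, 15.8, and the most values at or under the floor, 23.9%. Main genes are given array by array below, and counts also without replicate 3 or, where that moves them, replicate 2.

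Of the 18048 probe sets, 3828 (21.2%) passed the test, 1529 (8.47%) higher and 2299 (12.7%) lower with Wy-14643 (limma, D number as a block, adjusted p under 0.05). Without the replicate 3 pair 2980 (16.5%) passed, 1168 (6.47%) higher and 1812 (10%) lower. Without the replicate 2 pair 1133 passed, and without the block 1320 (7.31%), 2.82% higher and 4.49% lower. The same paired fit on the 6 arrays alone, with 2 residual degrees of freedom against 36, called 82 probe sets, 67 higher and 15 lower. The median residual SD over all probe sets was 0.252 (log2) within these 6 arrays and 0.253 over all arrays. For the called probe sets it was 0.324 within the 6 arrays and 0.239 over all arrays. These medians rest on 2 and 36 degrees of freedom. On few degrees of freedom the median SD lies under the true spread, so equal medians do not show equal spread. A low SD over all arrays makes a call more likely, and its part in the medians of the called probe sets was not tested. Unless another fit is named, the SEs and adjusted p below come from the fit on all arrays. For called probe sets they thus rest on a spread whose median is under that within the 6 arrays. Counted over genes, 1 probe set each, 1067 of 10178 (10.5%) were higher and 1468 (14.4%) lower (24.9% in all), with a median change of −0.01 over all of them. These shares were 8.25% and 11.7% without replicate 3, 2.84% and 4.75% without replicate 2, 12.8% and 14.3% without replicate 1, and 3.52% and 5.29% without the block. Of these 2535 genes 2232 changed in the same direction in all 3 pairs. The pairs differed in size: the SD of the log2 change over the tested probe sets was 0.629 in pair 1, 0.925 in pair 2 and 0.663 in pair 3, and pair 2 had the largest fall of 1036 of the 1468 lower genes. Over all tested probe sets the 3 Wy-14643 arrays lay above all 3 control arrays in 5.05% and below them in 8.76%.

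Fatty acid genes were mostly higher with Wy-14643. Of 87 tested genes in 6 lists of fatty acid uptake, transport, oxidation, hydroxylation and thioesters, 53 rose and 10 fell, where 10.5% and 14.4% of all genes did, and 48 of the 53 rose in all 3 pairs. Without the replicate 3 pair 46 rose and 7 fell, without replicate 2 49 and 1, without replicate 1 41 and 12, and without the block 37 and 2. In the fit on the 6 arrays alone, where 43 of all genes (0.422%) were higher, 18 were of these lists.

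The largest change was in Acot1, the cytosolic acyl-CoA thioesterase that frees fatty acids from CoA. Its intensity was 4303, 3622 and 1683 on Wy-14643 replicates 1, 2 and 3, against 2.12, 0.411 and 0.907 on the controls. All 3 control arrays were under the floor of 3.12 to which low values were raised, so the mean ratio of at least 953-fold is a lower bound (log2 9.90 ± 1.15 SE, adjusted p = 6.16e-08, and 0.000337 in the 6-array fit). Pdk4, the kinase that shuts pyruvate out of the citric acid cycle when fat is burned, read 2988, 3282 and 3079 with Wy-14643 and 41.6, 71.1 and 43.1 in the controls. The groups were far apart in every pair, and Pdk4 rose by 5.95 ± 0.72 on the log2 scale (adjusted p = 9.60e-08). Fabp1, the liver fatty acid binding protein that carries ligands to PPARα, read 6345, 2651 and 2522 with Wy-14643, against 156, 753 and 767 in the controls. Its rise of 2.96 ± 0.51 was largest in replicate 1, at 5.35, beside 1.82 and 1.72 in the other pairs.

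The start regions of these genes are shown because the receptor is known to bind such repeats near the starts of some targets, rat Fabp1 among them. They run from 250 bases before to 50 bases after the gene's start in RefSeq (GRCr8), 5′ to 3′ on the gene's strand, and capitals mark the match to the direct repeat AGGNCANAGGNCA, searched on both strands.
Fabp1, chr4:104749090-104749389, plus strand: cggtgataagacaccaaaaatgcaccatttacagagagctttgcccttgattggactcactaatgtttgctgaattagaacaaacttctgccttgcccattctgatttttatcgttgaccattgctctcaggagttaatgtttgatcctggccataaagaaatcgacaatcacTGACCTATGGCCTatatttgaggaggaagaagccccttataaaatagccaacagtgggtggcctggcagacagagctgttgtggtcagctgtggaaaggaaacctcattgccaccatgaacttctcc
Acot1, chr6:109367024-109367323, plus strand: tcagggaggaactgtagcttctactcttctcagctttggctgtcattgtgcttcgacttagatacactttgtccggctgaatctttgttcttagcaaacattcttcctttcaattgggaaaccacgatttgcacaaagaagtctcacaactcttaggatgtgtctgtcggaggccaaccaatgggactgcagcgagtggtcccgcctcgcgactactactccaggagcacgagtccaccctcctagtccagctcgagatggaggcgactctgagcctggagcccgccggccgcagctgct
Pdk4, chr4:34568280-34568579, minus strand: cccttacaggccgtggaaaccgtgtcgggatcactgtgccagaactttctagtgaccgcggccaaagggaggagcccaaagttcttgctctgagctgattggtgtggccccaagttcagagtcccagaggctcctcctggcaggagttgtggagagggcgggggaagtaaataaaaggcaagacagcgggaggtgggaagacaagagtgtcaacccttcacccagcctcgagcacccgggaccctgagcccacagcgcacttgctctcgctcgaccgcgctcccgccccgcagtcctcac
The match in the Fabp1 window, TGACCTATGGCCT as read on the gene's strand, spans bases −77 to −65 from the start, on the opposite strand. The Acot1 and Pdk4 windows hold neither this repeat nor the single hexamer AGGTCA. Of 33469 RefSeq start regions of this length, 139 (0.415%) held the repeat and 16.2% the hexamer, which also lies inside some of the repeats. Among the 53 higher fatty acid genes 47 had a start region in the table, of which 1 (2.13%) held the repeat and 13 (27.7%) the hexamer. The 1 with the repeat was Fabp1 itself, shown above. Of all 1067 higher genes 928 had a start region, of which 4 (0.431%) held the repeat and 15.2% the hexamer. For the lower genes the share with the repeat was 0.336%. Of the start regions of all tested genes 0.327% held the repeat and 12.1% the hexamer.

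**Figure D1:**
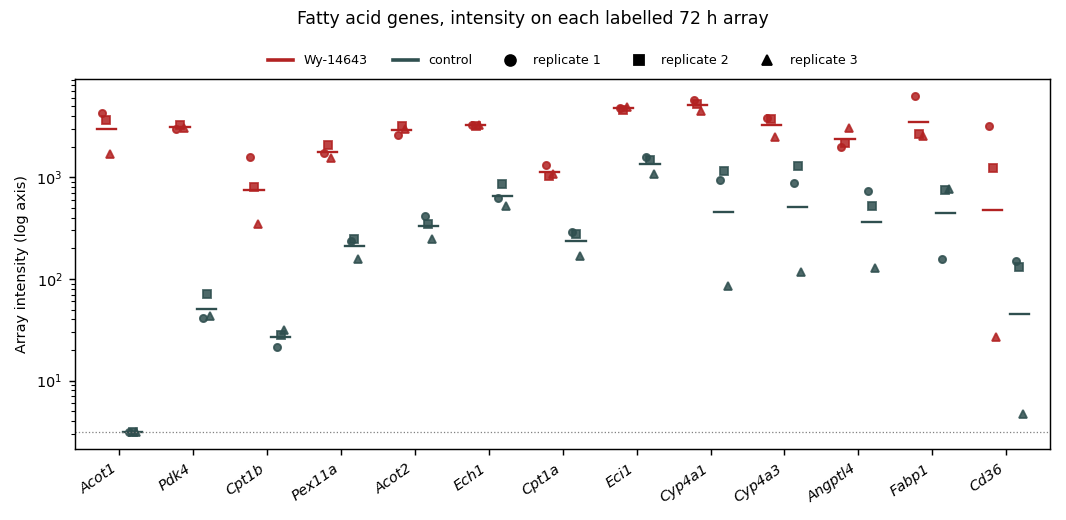
Intensity of 13 fatty acid genes on each labelled 72 h array (log axis, MAS5 units). Red symbols are the 3 Wy-14643 arrays, dark symbols the 3 controls, symbol shapes are replicates, bars are means of log2 values, and the dotted line is the floor of 3.12. For Pdk4 the Wy-14643 arrays lie between 2988 and 3282 and the controls between 41.6 and 71.1, while for Cd36 the replicate 3 arrays of both groups lie far under the others.

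Fatty acids enter the cell and are bound before they are used. Cd36, the fatty acid translocase, read 3175, 1232 and 27.0 with Wy-14643, against 151, 132 and 4.69 in the controls. Within each pair it was higher with Wy-14643, by 4.40, 3.22 and 2.53 on the log2 scale, yet both replicate 3 arrays were so low that the groups overlap (3.38 ± 0.61, adjusted p = 7.36e-05, and 0.0808 without the block). Of the 26 tested genes of uptake and lipid droplets 12 rose and 4 fell, where 10.5% and 14.4% of all genes did. Without replicate 3 it was 10 and 4. The lower 4 were Slc27a5, a bile acid and fatty acid CoA ligase, Fabp2, Cideb and Cidec, and none of them passed without replicate 2. Fabp3, the heart form of the binding protein, read 1322, 44.7 and 8.19 with Wy-14643, against 14.5, 13.2 and 8.86 in the controls, so that replicate 1 decided its rise of 2.72 ± 0.93 (adjusted p = 0.0313, 0.586 without replicate 1 and 0.096 without replicate 2). Aqp7, the channel for glycerol, had the same shape, with 533, 73.2 and 19.6 with Wy-14643 and 16.2, 23.4 and 13.6 in the controls (adjusted p = 0.137 without replicate 1).

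On the lipid droplet, Hilpda, an inhibitor of triglyceride lipase, read 557, 666 and 737 with Wy-14643 and 86.9, 57.5 and 131 in the controls. It rose by 2.90 ± 0.38, by at least 2.50 in each pair. Angptl4, a secreted inhibitor of lipoprotein lipase, read 1988, 2180 and 3066 with Wy-14643, against 725, 522 and 129 in the controls. The groups did not overlap, and the rise was largest in pair 3, at 4.58, where the control was lowest. Plin2, the droplet coat protein, was bright in all 6 arrays, at 3510, 4304 and 3779 with Wy-14643 and 2566, 2968 and 2009 in the controls, a rise of 0.63 ± 0.13.

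Fatty acids cross into mitochondria as carnitine esters, and 6 of the 7 tested genes of this shuttle rose and 0 fell, with a median change of 2.01 over the list. The same numbers rose and fell without any 1 of the pairs and without the block, and 5 rose in the 6-array fit. Over all genes 10.5% rose and 14.4% fell. The share that rose was at most 12.8% without a pair, 3.52% without the block and 0.422% in the 6-array fit. Cpt1b, the muscle form of the enzyme that makes acylcarnitine, read 1564, 798 and 343 with Wy-14643, against 21.6, 27.9 and 31.6 in the controls. It rose by 6.18, 4.84 and 3.44 in the 3 pairs (4.82 ± 0.54, adjusted p = 3.04e-08). The liver form Cpt1a read 1323, 1022 and 1070 with Wy-14643 and 290, 275 and 169 in the controls. Its change was even across the pairs, 2.19, 1.89 and 2.66. Slc22a5, which imports carnitine, rose by 2.01 ± 0.33, Crat, the carnitine acetyltransferase, by 2.22 ± 0.40, and Slc25a20, which exchanges acylcarnitine for carnitine at the inner membrane, by 1.68 ± 0.25.

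In the mitochondrial chain that shortens acyl-CoA, 13 of 16 tested genes rose and 0 fell, with a median change of 1.00, and 9 rose without replicate 3. Over all genes 10.5% rose and 14.4% fell, and 8.25% rose without replicate 3. Eci1, which moves double bonds so that unsaturated fatty acids can be oxidised, read 4805, 4597 and 4929 with Wy-14643, against 1587, 1481 and 1068 in the controls. The 2 groups were tight and apart, and the change of 1.81 ± 0.20 also passed in the 6-array fit (adjusted p = 0.0208). Acsl1, which joins fatty acids to CoA, rose by 1.95 ± 0.26, Acat1, the thiolase of short chains, by 1.72 ± 0.29, and Decr1, another enzyme of unsaturated acyl-CoA, by 1.35 ± 0.21.

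Of 18 tested genes of peroxisomal oxidation and biogenesis 11 rose and 2 fell, 10 and 0 without replicate 3 and 7 and 3 without replicate 1. Over all genes 10.5% rose and 14.4% fell, 8.25% and 11.7% without replicate 3 and 12.8% and 14.3% without replicate 1. The median of the list was 0.76, and 0.33 without replicate 1, with 1.3, 0.28 and 0.45 in pairs 1, 2 and 3. Pex11a, a membrane protein that drives peroxisomes to divide, read 1725, 2071 and 1559 with Wy-14643, against 238, 246 and 156 in the controls. It rose by 2.86, 3.08 and 3.32 in the pairs (3.08 ± 0.28, adjusted p = 1.06e-09), and by 2.97 on a second probe set. Ehhadh, the bifunctional enzyme of peroxisomal oxidation, read 6323, 1567 and 1935 with Wy-14643, against 525, 634 and 141 in the controls. The groups did not overlap, and the pairs gave 3.59, 1.31 and 3.78. Ech1, a dienoyl-CoA isomerase, was steady, at 3247, 3168 and 3290 with Wy-14643 and 628, 864 and 521 in the controls, and rose by 2.30 ± 0.28. Crot, which makes carnitine esters for export from peroxisomes, rose by 1.82 ± 0.40. The lower 2 were Acox2, the oxidase of bile acid precursors (−1.5 ± 0.43 over the 3 pairs, with +0.60, −3.34 and −1.76 in them), and Scp2, the sterol carrier and thiolase (−0.51 ± 0.13). Neither fall passed without replicate 3 or without replicate 2.

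Thioesterases free fatty acids from CoA in several compartments. Of 10 tested genes 8 rose and 0 fell, with a median of 1.77, and again 8 and 0 without replicate 3. The shares of all genes that rose were 10.5%, and 8.25% without replicate 3. Acot2, the mitochondrial form, read 2600, 3219 and 3013 with Wy-14643, against 416, 348 and 246 in the controls. It rose by 3.16 ± 0.37, and its other 2 probe sets by 3.47 and 2.20. Acot4, a peroxisomal form, rose by 2.68 ± 0.36 and Acot7, a cytosolic form of long chains, by 2.69 ± 0.36. Acot1 to Acot4 are close in sequence, as are the Cyp4a genes, and the probe sequences that would show which of them a probe set reads were not used here.

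The Cyp4 list did not move together, with 3 genes up and 4 down of 10 tested and a median of −0.34. Of all genes 10.5% were up and 14.4% down. Cyp4a1, the fatty acid hydroxylase best known as a marker of peroxisome proliferators, read 5784, 5201 and 4520 with Wy-14643, against 944, 1160 and 85.9 in the controls. Cyp4a3, a close relative, read 3851, 3697 and 2475 with Wy-14643, against 872, 1288 and 117 in the controls. In both genes the level with Wy-14643 was alike in the 3 arrays and the replicate 3 control was far under the other 2, so the pair 3 changes of 5.72 and 4.40 exceeded those of pairs 1 and 2 (2.62 and 2.17 for Cyp4a1). Without replicate 3 the rise of Cyp4a1 was 2.39 ± 0.56 (adjusted p = 0.00258), beside 3.50 ± 0.54 with it. Cyp4b1, known mainly as a lung enzyme, read 25.1, 563 and 59.4 with Wy-14643 and 7.92, 5.42 and 10.96 in the controls, with pair 2 far above the others. The lower 4 were Cyp4a8, Cyp4f1, Cyp4f6 and Cyp4v3, which fell by 0.39 to 1.69 on the log2 scale, of which 1 passed without replicate 2.

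Of 16 tested PPAR receptors and cofactors 1 rose and 1 fell, where 10.5% and 14.4% of all genes did. Ppara itself was dim, at 13.9, 25.8 and 1.61 with Wy-14643 and 2.09, 10.2 and 0.645 in the controls, with 1 and 2 arrays at the floor, and did not pass (1.17 ± 0.70, adjusted p = 0.252). Nrip1, a corepressor, rose by 0.59 ± 0.18, and Nr1h4, the bile acid receptor FXR, fell by 0.79 ± 0.25 with +0.28, −1.78 and −0.87 in the pairs. Neither passed without replicate 2, nor Nr1h4 without replicate 3. Creb3l3, a liver factor that works with PPARα on fasting genes, read 1781, 1370 and 1278 with Wy-14643, against 668, 787 and 336 in the controls, a rise of 1.38 ± 0.21. Vnn1, a pantetheinase that gives back the building block of CoA, rose by 2.45 ± 0.32 although both replicate 3 arrays were low for it (adjusted p = 0.0666 without the block). Txnip, which restrains glucose uptake, rose by 2.37 ± 0.45. Ucp2, an uncoupling protein of the inner mitochondrial membrane, rose by 2.16 ± 0.48 (adjusted p = 0.0945 without the block). With it 5 of 33 genes of the respiratory chain and uncoupling list rose (2 without replicate 2), a share near the 10.5% of all genes.

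The fasting hormone Fgf21 did not pass, with 184, 255 and 424 with Wy-14643 and 281, 554 and 404 in the controls, and the change had both signs. Of 5 tested genes of ketone body synthesis and export 1 rose, where 10.5% of all genes did. It was Slc16a7, a carrier of monocarboxylates (0.50 ± 0.15, adjusted p = 0.0109, and 0.202 without replicate 2).

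Glucose genes split, 5 of 22 up and 5 down (1 and 4 without replicate 2). Over all genes 10.5% were up and 14.4% down (2.84% and 4.75% without replicate 2). Pklr, the liver pyruvate kinase at the last step of glycolysis, read 36.9, 14.8 and 41.7 with Wy-14643, against 424, 925 and 294 in the controls. The groups were far apart, and Pklr fell by 4.10 ± 0.52 on the log2 scale, and by 5.51 on its other probe set. Slc2a2, the glucose carrier of liver, read 1001, 805 and 1050 with Wy-14643, against 3078, 3542 and 2335 in the controls. It fell by 1.64 ± 0.24 and was among the 9 genes (0.0884% of all) that were lower in the 6-array fit (adjusted p = 0.0492). Slc37a4, the carrier that feeds glucose 6-phosphatase, fell by 1.85 ± 0.30.

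**Figure D2:**
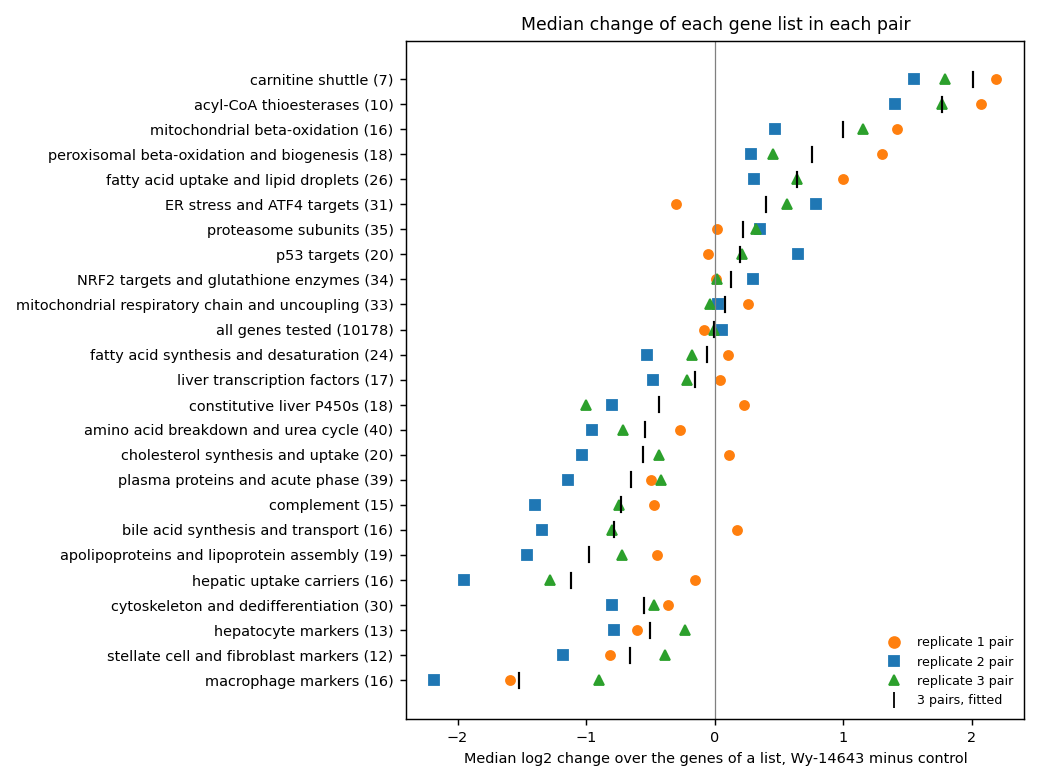
Median log2 change, Wy-14643 minus control, over the genes of 24 lists and over all genes, in each pair of arrays (symbols) and over the 3 pairs (black bars), with the number of genes tested in brackets. The 5 fatty acid lists at the top lie to the right of 0 in every pair, between 0.28 and 2.19, while most lists of liver function lie left of 0 in pairs 2 and 3 and nearer to 0 in pair 1.

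Many genes of hepatocyte function were lower with Wy-14643. Over all genes 14.4% fell and 10.5% rose, 11.7% and 8.25% without replicate 3 and 4.75% and 2.84% without replicate 2. In total RNA of a culture, fewer cells of a type and less RNA per cell cannot be told apart. The carriers that take bile acids and drugs up from blood had the lowest median of these lists, −1.12 over 16 tested genes, of which 10 fell and 1 rose, 9 and 1 without replicate 3 and 6 and 0 without replicate 2. The median was −0.16 in pair 1, −1.95 in pair 2 and −1.28 in pair 3. Slco1a4, an organic anion carrier, read 77.8, 15.3 and 10.8 with Wy-14643, against 245, 628 and 437 in the controls. The pairs gave −1.66, −5.36 and −5.34 (−4.12 ± 0.50, adjusted p = 1.13e-07). Slco1a1, its close relative, read 53.9, 17.3 and 6.66 with Wy-14643, against 113, 305 and 100 in the controls, and Slco2b1 fell by 2.07 ± 0.36. Slc10a1, the sodium-dependent bile acid carrier NTCP, read 515, 83.8 and 39.1 with Wy-14643, against 312, 676 and 317 in the controls. It was higher in pair 1 and lower in pairs 2 and 3, by +0.72, −3.01 and −3.02, and its adjusted p of 0.0151 became 0.195 without replicate 3 and 0.306 without replicate 2.

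In the list of bile acid genes, from synthesis to export, 8 of 16 tested fell and 1 rose, 4 and 1 without replicate 3 and 1 and 0 without replicate 2. The matching shares of all genes that fell were 14.4%, 11.7% and 4.75%, so the count without replicate 2 was near the share of all genes. Cyp7a1, the rate-limiting enzyme of bile acid synthesis, read 112, 13.7 and 7.60 with Wy-14643, against 122, 448 and 149 in the controls. The pair 1 arrays were nearly equal (−0.13), and pairs 2 and 3 gave −5.03 and −4.29 (−3.15 ± 0.66, adjusted p = 0.000522, and 0.0787 without replicate 2). Cyp8b1, which sets the share of cholic acid, did not pass, with 392, 24.0 and 44.4 with Wy-14643, against 87.8, 387 and 79.8 in the controls. The pairs ran +2.16, −4.01 and −0.85.

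**Figure D3:**
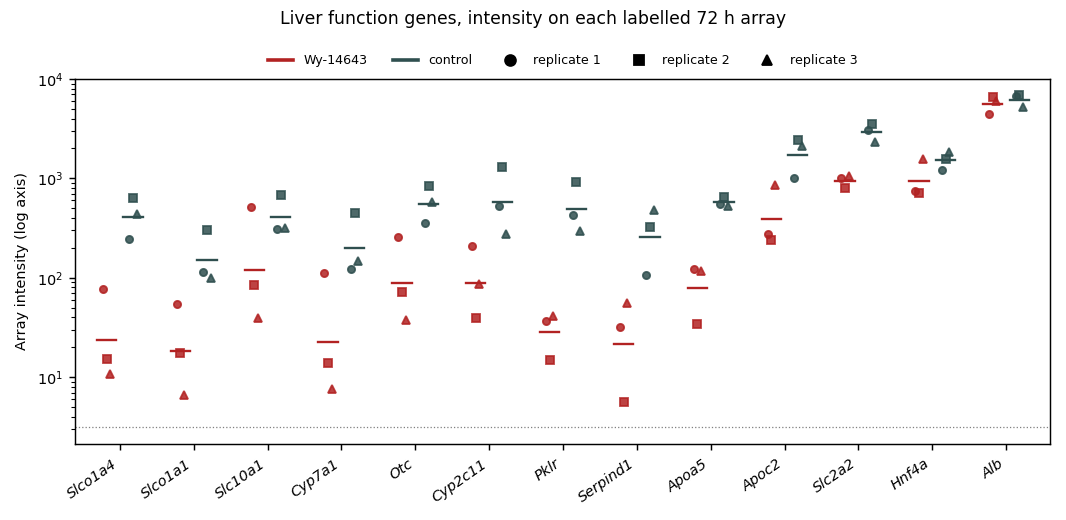
Intensity of 13 genes of liver function on each labelled 72 h array (log axis, MAS5 units). Red symbols are Wy-14643 arrays, dark symbols controls, shapes are replicates, bars are means of log2 values, and the dotted line is the floor. For Cyp7a1 and Slc10a1 the replicate 1 arrays of both groups lie closer together than those of the other pairs, while Pklr and Apoa5 are lower on every Wy-14643 array than on every control.

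Among 40 tested genes of amino acid breakdown and the urea cycle 20 fell and 1 rose, 17 and 1 without replicate 3 and 5 and 0 without replicate 2. In the same fits 14.4%, 11.7% and 4.75% of all genes fell. Otc, ornithine transcarbamylase of the urea cycle, read 256, 72.3 and 37.8 with Wy-14643, against 357, 846 and 573 in the controls (−2.65 ± 0.45). Dpys, an enzyme of pyrimidine breakdown, read 155, 43.0 and 52.2 with Wy-14643, against 375, 629 and 332 in the controls (−2.61 ± 0.32), with no overlap. Bhmt, which remakes methionine from homocysteine, fell by 2.48 ± 0.70 and Haao, of the tryptophan path to NAD, by 1.68 ± 0.29. The 1 gene that rose was Oat, ornithine aminotransferase, by 1.55 ± 0.42. Without replicate 2 Bhmt (adjusted p = 0.253) and Oat (0.0609) did not pass, nor Bhmt without replicate 3 (0.0526), nor Oat without replicate 1 (0.225).

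Of 39 tested plasma proteins and acute phase genes 26 fell and 1 rose, 28 and 2 without replicate 3 and 10 and 0 without replicate 2. Beside these counts, 14.4%, 11.7% and 4.75% of all genes fell. Serpind1, the thrombin inhibitor heparin cofactor II, read 31.7, 5.67 and 56.0 with Wy-14643, against 105, 327 and 484 in the controls (−3.57 ± 0.43, adjusted p = 1.00e-07). Serpina3n, an acute phase protease inhibitor, read 959, 153 and 3288 with Wy-14643, against 4466, 4608 and 4524 in the controls. The controls were nearly equal and the Wy-14643 arrays wide apart. Plg, plasminogen, fell by 2.45 ± 0.43 (adjusted p = 0.0667 without replicate 2). Serpina6, the corticosteroid carrier of plasma, was the gene that rose, with 28.7, 165 and 41.6 with Wy-14643 and 0.314, 6.59 and 35.5 in the controls (adjusted p = 0.00151, and 0.168 without replicate 2).

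Of 15 tested complement genes 10 fell and 0 rose, also 10 and 0 without replicate 3, and 4 and 0 without replicate 2. C1s, a protease that starts the classical pathway, read 855, 162 and 466 with Wy-14643, against 1571, 1419 and 1141 in the controls (−1.77 ± 0.22). Of 19 tested apolipoproteins and genes of lipoprotein assembly 15 fell and 0 rose, with a median of −0.98, 14 and 0 without replicate 3 and 7 and 0 without replicate 2. Both lists stand beside 14.4%, 11.7% and 4.75% of all genes that fell in the same fits. Apoa5, an activator of triglyceride clearance, read 122, 34.4 and 116 with Wy-14643, against 554, 646 and 529 in the controls. No array of the groups overlapped, and Apoa5 fell by 2.18, 4.23 and 2.19 in the pairs (−2.87 ± 0.31, adjusted p = 2.87e-08, and 0.0591 in the 6-array fit). Apoc2, the cofactor of lipoprotein lipase, fell by 2.16 ± 0.24, Lcat, which esterifies cholesterol in plasma, by 1.91 ± 0.24, and Apoa1, the main protein of HDL, by 0.98 ± 0.20 with −0.03, −2.17 and −0.72 in the pairs (adjusted p = 0.218 without replicate 2).

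Cytochromes of drug and steroid metabolism went both ways. Cyp2e1, the ethanol oxidase that also takes ketones and fatty acids, read 456, 1449 and 499 with Wy-14643, against 13.2, 31.4 and 117 in the controls, and rose by 4.24 ± 0.66 (adjusted p = 6.91e-06, and 0.0625 in the 6-array fit). The male-specific Cyp2c11 read 210, 39.0 and 86.9 with Wy-14643, against 528, 1297 and 276 in the controls (−2.68 ± 0.53). Of the 18 tested constitutive P450 genes 3 rose and 6 fell (2 and 4 without replicate 2), and of 15 genes inducible through the receptors CAR and PXR 2 rose and 5 fell (1 and 1). Over all genes 10.5% rose and 14.4% fell (2.84% and 4.75% without replicate 2), so the shares that rose in these small lists were not far from that of all genes. Abcb1a, a drug efflux pump, was the larger of the 2 rises in the CAR and PXR list, with 58.2, 554 and 288 with Wy-14643 and 58.0, 65.7 and 67.6 in the controls, equal in pair 1. Its other probe set gave +1.08 and did not pass. Cyp1a1, the only gene of the 5 tested AhR targets that passed, read 210, 0.600 and 18.4 with Wy-14643 and 130, 441 and 103 in the controls, with +0.69, −7.14 and −2.48 in the pairs. Without replicate 2 Cyp2c11, Abcb1a and Cyp1a1 did not pass (adjusted p = 0.115, 0.0738 and 0.537).

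Of 34 tested NRF2 targets and glutathione enzymes 7 rose and 9 fell (4 and 4 without replicate 2). Over all genes the shares were 10.5% and 14.4% (2.84% and 4.75% without replicate 2). Gstm3, a glutathione transferase, read 297, 58.3 and 303 with Wy-14643, against 1319, 1060 and 1390 in the controls (−2.85 ± 0.36). Hmox1, haem oxygenase, rose by 1.96 ± 0.38, by 2.86, 2.27 and 0.76 in the pairs, and Aldh1a1, which makes retinoic acid, by 2.12 ± 0.27. For Aldh1a1 the groups overlap, at 2756, 1000 and 450 with Wy-14643 and 951, 243 and 65.5 in the controls (adjusted p = 0.118 without the block).

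Over all genes 14.4% fell, 11.7% without replicate 3 and 4.75% without replicate 2. Of 20 tested genes of cholesterol synthesis and uptake 10 fell and 0 rose, 7 and 0 without replicate 3 and 0 and 0 without replicate 2. The 4 largest were Tm7sf2, Nsdhl, Hsd17b7 and Msmo1, all enzymes after squalene, which fell by 0.78 to 0.95 on the log2 scale over the pairs, with pair 2 between −1.60 and −2.02 and pair 1 between −0.37 and +0.17, and Hsd17b7 and Msmo1 also did not pass without replicate 3. The other probe set of Hsd17b7 gave −0.36 and did not pass. Of 24 tested genes of fatty acid synthesis and desaturation 5 rose and 9 fell (5 and 2 without replicate 2), where 10.5% and 14.4% of all genes did. Thrsp, an inducer of lipogenesis, read 1648, 152 and 394 with Wy-14643, against 2238, 4214 and 1457 in the controls (−2.37 ± 0.58, adjusted p = 0.32 without replicate 2), and Acss2, which activates acetate, fell by 1.78 ± 0.28. Scd2 and Elovl6, a desaturase and an elongase, rose by 2.65 ± 0.49 and 1.54 ± 0.29. For Scd2 the groups overlap, at 1305, 35.1 and 25 with Wy-14643 and 78.6, 8.52 and 6.97 in the controls (adjusted p = 0.217 without the block).

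Some genes of the ER stress response were higher with Wy-14643. Of 31 tested ER stress and ATF4 targets 8 rose, 5 of them in all 3 pairs, and 1 fell, where 10.5% and 14.4% of all genes did. The counts were 8 and 2 without replicate 3, 17 and 0 without replicate 1 and 2 and 0 without replicate 2. The median over the list was −0.30 in pair 1, 0.79 in pair 2 and 0.56 in pair 3. Sdf2l1, an ER chaperone partner, read 138, 1300 and 1065 with Wy-14643, against 129, 125 and 172 in the controls (2.04 ± 0.34, adjusted p = 1.82e-05). Ddit3, the transcription factor CHOP, read 79.6, 991 and 678 with Wy-14643, against 82.7, 104 and 236 in the controls (1.57 ± 0.32, adjusted p = 0.0004, and 0.22 without replicate 2). Creld2 and Trib3 had the same shape, with pair changes of −0.15, 2.60 and 1.53 and of −0.09, 2.59 and 0.72, and they too did not pass without replicate 2 (adjusted p = 0.166 and 0.552). None of the 4 passed in the 6-array fit, where their adjusted p lay between 0.168 and 0.287.

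Of 20 tested p53 targets 7 rose and 2 fell, 3 and 2 without replicate 3 and 1 and 2 without replicate 2. In the same fits 10.5%, 8.25% and 2.84% of all genes rose and 14.4%, 11.7% and 4.75% fell. Gdf15, a secreted stress protein, was even across the pairs, at 122, 267 and 133 with Wy-14643 and 55.2, 98.7 and 57.8 in the controls (1.26 ± 0.41, adjusted p = 0.0241, 0.0831 without replicate 3, 0.196 without replicate 2 and 0.0585 without replicate 1). Mdm2, the ubiquitin ligase of p53, rose by 0.63 ± 0.22 (adjusted p = 0.0378, 0.0961 without replicate 3 and 0.48 without replicate 2), while Cdkn1a, the p21 gene, did not pass (−0.24 ± 0.18). Of 30 tested genes of the cell cycle and replication 0 rose and 2 fell, Ccnf and Tk1 (Tk1 not without replicate 2 or 3), where 10.5% and 14.4% of all genes did, and Mki67, Ccnd1 and Myc did not pass (adjusted p = 0.788, 0.24 and 0.997). The other 2 probe sets of Tk1 gave −0.62 and +0.35, and neither was called lower. Of 35 proteasome subunits 7 rose and 0 fell, and 4 rose without replicate 3 and 0 without replicate 2, where 10.5%, 8.25% and 2.84% of all genes rose, the largest being Psmd12 at 0.56 ± 0.15.

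**Figure D4:**
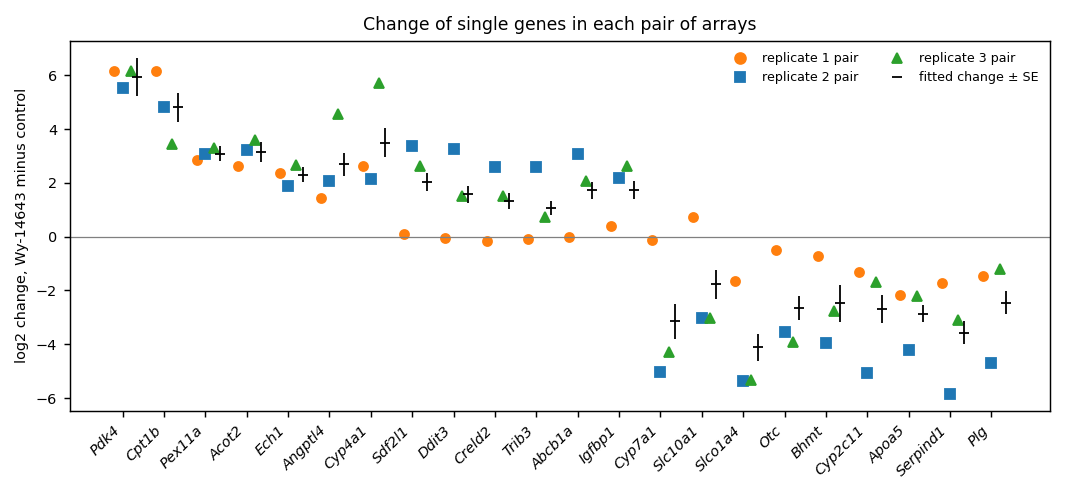
Log2 change, Wy-14643 minus control, of 22 genes in each pair of arrays (symbols) and over the 3 pairs (black bar, with SE). The 7 fatty acid genes on the left are above 0 in every pair, the 4 stress genes from Sdf2l1 to Trib3 are near 0 in pair 1, and each of the 9 liver genes from Cyp7a1 on is lower in pair 2 than in pair 1.

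Macrophage markers, and some of stellate cells and fibroblasts, were lower too. Over all genes 14.4% fell and 10.5% rose, 11.7% and 8.25% without replicate 3 and 4.75% and 2.84% without replicate 2. With 6 and 5 tested genes the endothelial and bile duct lists are too small to stand apart from these shares. Of 16 tested macrophage markers 14 fell and 0 rose, 15 and 0 without replicate 3 and 9 and 0 without replicate 2, with a median of −1.52. The summed intensity of the 18 markers on the array was 546, 613 and 861 with Wy-14643, against 1475, 919 and 1503 in the controls. Itgam was at or under the floor on all 6 arrays and Adgre1 on 4, while Clec4f, a marker of the resident macrophages of rodent liver, read 9.45, 3.89 and 50.8 with Wy-14643 and 51.9, 24.7 and 101 in the controls. Of 12 tested stellate cell and fibroblast markers 6 fell and 1, Dcn, rose (1 and 0 without replicate 2), and the summed intensity of 14 markers was 714, 242 and 550 with Wy-14643, against 1393, 460 and 720 in the controls. The sum of 11 endothelial markers was 160, 106 and 249 with Wy-14643, against 159, 126 and 330 in the controls, and of 6 tested 2 fell (0 without replicate 3 and 0 without replicate 2). Of 5 tested bile duct cell markers 1 fell, Epcam (not without replicate 2 or 3), and the sum of 9 was 1380, 1157 and 492 with Wy-14643, against 1705, 1034 and 572 in the controls.

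Hepatocyte markers were bright in both groups, none of the 13 was at the floor, and they sum to 3.71e+04, 3.66e+04 and 4.19e+04 with Wy-14643, against 5.04e+04, 5.43e+04 and 4.71e+04 in the controls. Of them 7 fell and 0 rose, 8 and 0 without replicate 3 and 0 and 0 without replicate 2. In the same fits 14.4%, 11.7% and 4.75% of all genes fell. Alb, the albumin gene, did not pass, with 4417, 6535 and 6011 with Wy-14643 and 6717, 6842 and 5236 in the controls. Hnf4a, the master transcription factor of hepatocytes, read 744, 715 and 1578 with Wy-14643, against 1217, 1584 and 1828 in the controls (−0.69 ± 0.15), but its other 2 probe sets gave +0.43 and +0.24 and did not pass. Without replicate 2 the fall of Hnf4a did not pass either (adjusted p = 0.104). The part of the other cells in the changes above was not tested.

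Genes of the cytoskeleton and of dedifferentiation, known to rise when hepatocytes flatten in culture, were mostly lower with Wy-14643, 17 of 30 tested down and 2 up, 11 and 2 without replicate 3 and 6 and 0 without replicate 2. Tagln, a smooth muscle actin-binding protein, read 379, 1.45 and 11.1 with Wy-14643, against 639, 120 and 130 in the controls (−3.19 ± 0.56, adjusted p = 0.0873 without the block). The groups overlap, and 1 Wy-14643 array was at the floor. Anxa1 and S100a6, which bind calcium, also fell (−2.27 ± 0.38 and −2.34 ± 0.48). Neither passed without the block (adjusted p = 0.131 and 0.0561), and S100a6 had an adjusted p = 0.0535 without replicate 2. In the growth hormone axis 4 of 14 genes fell and 2 rose (1 and 1 without replicate 2). Among them Socs2, a feedback inhibitor, fell (−2.37 ± 0.55, with 2 Wy-14643 arrays at the floor). Its adjusted p was 0.0577 without replicate 2 and 0.0857 without the block. Igfbp1, which binds insulin-like growth factors, read 886, 5453 and 2615 with Wy-14643 and 663, 1210 and 427 in the controls. It rose by 1.74 ± 0.35 (adjusted p = 0.0666 without the block). Of 17 liver transcription factors 7 fell, by at most 1.08 on the log2 scale, and 1 rose, Dbp, by 0.90. Without replicate 3 these counts were 4 and 1, without replicate 2 they were 0 and 0, and Dbp had an adjusted p = 0.266 without replicate 1. Beside the lists of this paragraph, 14.4% of all genes fell and 10.5% rose. These shares were 11.7% and 8.25% without replicate 3, and 4.75% and 2.84% without replicate 2.

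Outside these lists the largest rises of named genes were in Serpine2, a protease inhibitor, Colq, the collagen tail of acetylcholinesterase, Aig1, a lipid hydrolase of the membrane, and Adcy10, the soluble adenylyl cyclase. Adcy10 was the most even of them, at 77.3, 98.5 and 55.3 with Wy-14643 and 7.50, 10.5 and 5.07 in the controls, a rise of 3.35 ± 0.39 that also passed in the 6-array fit (adjusted p = 0.0117). Aig1 read 984, 892 and 845 with Wy-14643, against 120, 91.4 and 57.4 in the controls (3.40 ± 0.39). Serpine2 read 353, 589 and 55.1 with Wy-14643, against 18.6, 8.02 and 13.9 in the controls, and Shc4, a signalling adaptor, rose by 0.25, 5.96 and 3.22 in the pairs (adjusted p = 0.152 without replicate 2). Over the genes' brightest probe sets the largest fall was in Dhrs7l1, a dehydrogenase, with 40.4, 13.2 and 24.5 with Wy-14643, against 292, 1355 and 293 in the controls (−4.37 ± 0.62, adjusted p = 1.74e-06). Cmya5 and Sez6 fell by 3.53 ± 0.57 and 3.11 ± 0.46 and also passed in the 6-array fit (adjusted p = 0.0307 and 0.0435). Both were dim with Wy-14643, Cmya5 at 6.36, 0.704 and 4.90 with 1 array at the floor. Sez6 read 4.97, 2.20 and 1.43, with 2 arrays at the floor. Mlc1 fell by 3.29 ± 0.49, and Lox, which crosslinks collagen, by 3.02 ± 0.42 (adjusted p = 0.0641 without the block).

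The effect was set against that of Wy-14643 at the labelled time of 24 h, with the replicate 3 arrays of both times against the order of their labels in the culture time score. At 24 h 42 of the 87 fatty acid genes were higher with Wy-14643, where 2.43% of all genes were higher and 2.25% lower. The difference between the 2 times passed for 64 probe sets (0.355%), 20 (0.111%) higher and 44 (0.244%) lower at 72 h, for 0.422% of genes, and for 1 of the 87 genes, Pex11a, with a rise of 3.08 ± 0.28 at 72 h and 1.42 ± 0.28 at 24 h. Acot1, Pdk4 and Cpt1b rose by 9.90, 5.95 and 4.82 at 72 h and were 3.66, 2.30 and 2.45 higher at 24 h. Against the 24 h control only Cpt1b passed (adjusted p = 0.0583, 0.0552 and 0.00792). The differences between the 2 times did not pass (adjusted p = 0.0609, 0.0757 and 0.118). The count of differences was 0 without the block (1156 at an unadjusted p under 0.05) and 0 without replicate 2 (1878), 1010 without replicate 1 and 720 without replicate 3, and so differed with the pair left out.

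2-Nitrofluorene, a nitroarene carcinogen given at 78 µM with controls of its own, was compared at 72 h since it too raised fatty acid genes, 52 of the 87 against its control, where 3.31% of all genes rose and 3.22% fell. The effect of Wy-14643 was above that of 2-nitrofluorene for 4 of the 87 and below it for 10, where 3.02% and 4.89% of all genes were. The 4 were Cyp4b1, Hilpda, Pnpla2 and Slc27a4. Ehhadh was 2.89 higher with Wy-14643 and 4.65 higher with 2-nitrofluorene, a difference of −1.76 ± 0.67 that did not pass (adjusted p = 0.11), and that of Pdk4, 2.20 ± 1.01, did not pass either (0.198). Genes of liver function differed more often one way. Of 39 plasma proteins the effect of Wy-14643 was lower for 17 and higher for 0, of 40 amino acid genes for 18 and 0, of 19 apolipoprotein genes for 12 and 0, and of 16 uptake carriers for 7 and 0. For Otc the difference was −3.36 ± 0.63 and for Serpind1 −3.83 ± 0.61 (adjusted p = 0.000844 and 0.000144). In all 1158 probe sets (6.42%) differed, 457 (2.53%) higher and 701 (3.88%) lower, but 75 without the block and 130 without replicate 2. The doses differ, and the 2 sets carry different D numbers.

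Clonidine, an α2-adrenergic drug given at 277 µM, was run under the same D numbers and control, so its arrays were compared with those of Wy-14643 directly. Wy-14643 was above clonidine for 56 of the 87 fatty acid genes and below for 4, where 5.03% and 9.17% of all genes were. Of the 16 macrophage markers 14 were lower with Wy-14643 than with clonidine, and of 30 cytoskeletal genes 16. In all 2110 probe sets (11.7%) differed, 766 (4.24%) higher and 1344 (7.45%) lower with Wy-14643, 1556 without replicate 3, 880 without replicate 2 and 518 without the block. Clonidine against the control changed 114 probe sets (0.632%), 73 (0.404%) higher and 41 (0.227%) lower, or 0.57% and 0.236% of genes, with the control arrays that Wy-14643 shares.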

How the data were processed

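Each of the 72 samples was total RNA read on 1 Affymetrix rat array. The deposited table holds linear intensity values, made with MAS5 per the submitters' processing notes and scaled to a mean of about 100 without the top and bottom 2%, as the values show. For MAS5 no version or setting is given in the sources used here. Lower values were set to 3.12, the 20th percentile of the table, and log2 was taken, so folds of dim genes are understated. A probe set was tested where 1 group's mean reached the table median of 19.7. limma 3.58.1 (R 4.3.3) was fitted to all 72 arrays, 24 groups with the D number within each labelled time as a block, eBayes with a trend, 36 residual degrees of freedom, and Benjamini-Hochberg adjustment over 18048 probe sets. SEs are from this fit. The number of arrays limits the precision. The D numbers paired the arrays: after removal of group means same-numbered Wy-14643 and control arrays correlated by 0.577, 0.357 and 0.771. On simulated data with changes of 0.5, 1, 2 and 4 (log2) the fit recovered 15, 35, 49 and 50 of 50 each, with 11 of 17848 unchanged probe sets called. These data had independent noise with the residual SDs over all arrays, no block effects and the same change in every pair. They therefore do not show how the fit does where the pairs differ, as they do here.

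Of the kept probe sets 14072 have 1 symbol in the platform annotation, and each of 10178 genes is represented by its brightest. Of 2885 genes with several probe sets 5 had calls in both directions. The comparison, the 34 lists and the 36 fixed genes were chosen with earlier results of these data known. Named were the 12 largest rises and 12 largest falls with the same sign in all pairs, no group wholly at the floor and a brighter mean of at least the table median, up to 4 called genes per list, and the fixed genes. The text names fewer. Members that complete a count of 5 or fewer (such as Scp2, Cidec or Oat) were named after their values were seen.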

Additional observations from a re-analysis of the deposited data

Results flagged for a closer look

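For 3 genes named in the text the effect of Wy-14643 at the labelled 72 h differed from that at the labelled 24 h by the test of the difference itself (limma, adjusted p under 0.05). For Pex11a the difference was 1.67 ± 0.39 on the log2 scale (SE, adjusted p = 0.0441). For Dpys it was −2.12 ± 0.45 and for Ccnf, a cyclin of the centrosome, −1.76 ± 0.37 (adjusted p = 0.0338 for both). At 72 h Dpys was lower in all 3 pairs and Ccnf was lower in all 3 pairs, while at 24 h neither passed (−0.48 ± 0.32 and 0.25 ± 0.26). No probe set kept such a difference without the block or without replicate 2, and the replicate 3 arrays run against their time labels in the culture time score.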

How the results depend on the processing

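The count of 3828 fell to 1320 without the replicate block, 485 in the paired fit on the 12 arrays of the set, 82 on the 6 arrays alone and, added after seeing the data, 909 without both the block and replicate 3. Leaving out a pair gave 1133 to 4157. The difference between the times (64) was 0 without the block, 6 without the filter, 21 without the eBayes trend, and 0 to 1010 without a pair. The difference from 2-nitrofluorene (1158) was 75 without the block and 130 to 2491 without a pair, and that from clonidine (2110) was 518 and 880 to 2304. Counts under the other floor, quantile normalization and, for the 3 larger comparisons, no filter and no trend stayed within 1.5 times. Without all arrays of D number 3, also added, 3765 passed. The fewer arrays of the smaller fits leave fewer degrees of freedom (2 on the 6 arrays, against 36). The median residual SD of the called probe sets was also larger on the 6 arrays, 0.324 against 0.239 over all arrays. The part of these and of other causes was not tested. Of 137 called genes among those named, 86 kept their call without the block, 81 without replicate 2, 121 without replicate 3, 130 without replicate 1 and 26 on the 6 arrays, and 0 turned direction. Only genes that had not passed changed sign: Cyp8b1 (−2.43 to 0.66 when a pair was left out, above 0 without replicate 2), Alb (−0.335 to 0.0665, above 0 without replicate 1, and 0.0752 after quantile normalization), Myc (−0.155 to 0.109, below 0 without replicate 2; the Myc log2 change was −0.005425 after quantile normalization) and Mki67 (−0.18 to 0.461, −0.18 without replicate 3, with the block or without it and without all of D number 3, and 0 with the higher floor).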
